A study of Homo sapiens with 2 samples.

Results

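The high-read peaks on the autosomes were 742 of the 64251 regions that the peak caller MACS listed for the transcription factor TCF12 in Hep3B cells, an established human hepatocellular carcinoma line. They were chosen by the number of ChIP reads at the summit, the position of a peak with the deepest pileup: at least 10 reads, on chromosomes 1 to 22, leaving out chromosome 4 from 9150000 to 9400000. That left-out span held 89 listed peaks, 33 of them with at least 10 reads, and the members are 742 of the 63460 autosomal peaks outside it, or 1.17%. Hep3B cells grown in DMEM with serum, with no treatment named in the labels, were the source of both libraries, 1 precipitated with an antibody to TCF12 and 1 input library without antibody. No peak therefore has a replicate, and no test across peaks was made. The values below describe these 2 libraries. All positions are on the human build hg19.

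TCF12 is a class A basic helix-loop-helix protein, also called an E protein. Such proteins contact short E-box sites (CANNTG) as dimers, and the broadly expressed E proteins serve as partners for bHLH factors that are restricted to particular tissues. In a ChIP experiment, fragments bound by the factor are expected to pile up around its sites, while the input library records how many fragments each stretch of DNA yields without selection. Stretches present in extra copies, or repeats that the reference holds in fewer copies than the cell does, yield more fragments in both libraries. The peaks are described by position, without the nearest gene or the bases beneath them, because no annotation or sequence of that build was used.

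The number of reads at a summit was obtained from the deposited pileup, which MACS had scaled to the smaller input library by 0.864. MACS used 10254561 ChIP tags and 8862145 input tags. Most members lay close to the threshold. Of the 742, 343 had exactly 10 reads, 294 had 11 to 14, 54 had 15 to 19, 36 had 20 to 29 and 15 had 30 or more. The median was 11 reads and the maximum 94. At 10 reads the exact 95% Poisson interval runs from 4.795 to 18.4, and at 94 reads from 76.0 to 115, both for counting error only. Just below the threshold, 769 peaks had 9 reads. Their median length of 220 bp and median background of 2.00 input reads lay next to the 226 bp and 2.09 of the peaks with 10 reads.

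Counting the reads says how deep a peak was, not how far it stood above the input. The authors' fold enrichment, the scaled pileup over the local background with 1 added to both, ranged from 1.47 to 7.99 over the members with a median of 2.84. It was below 2 in 114 members (15.4%) and in 2.24% of the autosomal peaks with 3 to 9 reads. At least 5 was reached by 37 members and by 0 of the peaks with 3 to 9 reads. The read rule fixes that 0, since 9 reads at the lowest background give only 4.98. The peaks with 7 to 9 reads had a higher median fold enrichment, 3.19, and those with 3 to 6 reads a median of 2.53. A q below 1, taken from the deposited column although the header states that q was not calculated, was given to 115 members, where 0.255% of all autosomal peaks had one, and a q of at most 0.05 to 31 members, where the share of all autosomal peaks was 0.0488%. These values come from the same reads as the rule, and nothing is read from the difference. All 31 autosomal peaks with a q of at most 0.05 were members, which the read rule fixes. Even 10 reads at the lowest background fall short of that q, at 1.25 in −log10 q.

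The median length of the high-read peaks was above that of the lower read classes. Their median length was 231 bp (quartiles 185 and 317), against 214 bp for the 7466 autosomal peaks with 7 to 9 reads and 188 bp for the 55252 peaks with 3 to 6 reads. The minimum length that MACS allows, 161 bp, was taken by 8.89% of the members, 16.7% of the peaks with 7 to 9 reads and 40.3% of those with 3 to 6. At least 500 bp were covered by 57 members (7.68%), in contrast to 3.98% and 1.70% in the lower classes. Within the members the median length did not rise steadily with reads. It was 226 bp at 10 reads, 217.5 bp at 11 and 226 bp at 12. At 13, 14 and 15 reads it was 253, 275.5 and 238 bp, and in the 90 peaks with 16 or more reads 261 bp. At like background the difference did not hold throughout. It was widest below 1 input read, where few members lay. At the lowest background the median was 300 bp for 7 members and 175 bp for all listed peaks. From there up to 1 input read it was 307 bp for 19 members and 188 bp for all. Where the background lay between 1 and 2 input reads the median was 221 bp for members and 210 bp for all listed peaks, members included. Between 2 and 3 it was 210 bp for members and 226 bp for all, and between 3 and 4 it was 235 bp and 236 bp. Length and reads come from the same pileup, so this is a description of their shape. The summit lay in the middle 50% of the peak in 71.6% of the members, 75.3% of the peaks with 7 to 9 reads and 65.0% of those with 3 to 6.

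**Figure D1:**
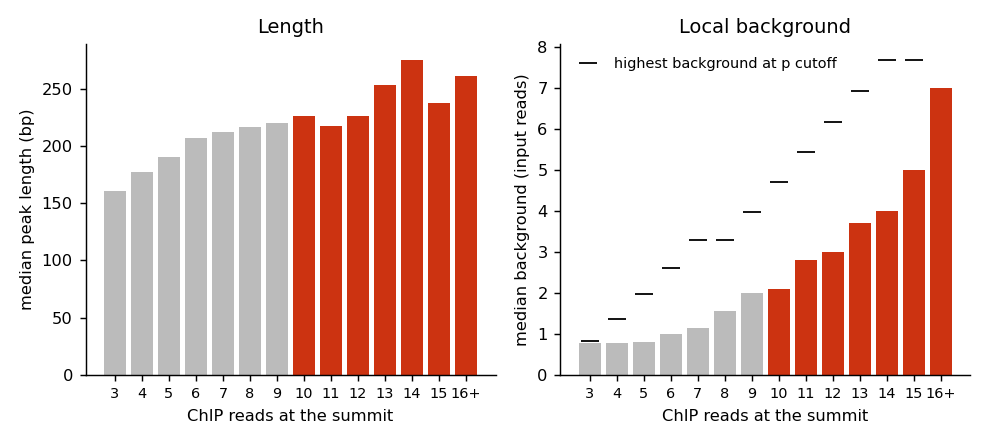
Median length in bp (left) and median local background in input reads (right) of the autosomal peaks, by the number of ChIP reads at the summit on the x axis. Grey bars are peaks below the threshold and red bars the members; black dashes mark the highest background with which a peak of that many reads passes the p cutoff of 0.05. Median background goes from 0.763 at 3 reads to 2.09 at 10 reads and 7 at 16 or more, and the limit moves up with it.

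The longest member, chr17:21548611-21550480, covered 1870 bp and had 20 reads at its summit. Its background was 1.29 input reads and its fold enrichment of 7.99 was the highest of all members, shared with chr20:29652914-29653625, which had the same reads and background over 712 bp. The next longest, chr7:158128926-158130494, covered 1569 bp with 12 reads and a fold enrichment of 5.35. Length did not always go with enrichment. The following pair, chr17:105879-107355 with 15 reads and chr17:164417-165844 with 18 reads, had backgrounds of 5 and 6 and fold enrichments of 2.33 and 2.37.

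The input was also deep where the ChIP library was deep. The local background that MACS used is the highest of a genome-wide level of 0.763 reads and of the input around the summit, either at the position itself, in 1 kb or in 10 kb. Each recovered background above the genome-wide level matched a whole number of input reads in one of these windows. The 0.763 follows from the mouse genome size in the header, and the human size would give 0.528. Shares of peaks at the genome-wide level are therefore tied to 0.763. At the human size the median background of the members was still 3.00. The median background was 3.00 in the members (quartiles 2.00 and 4.00), 1.29 in the peaks with 7 to 9 reads and 0.763 in those with 3 to 6. Only 7 members (0.943%) sat at the genome-wide level, where 10.7% of the peaks with 7 to 9 reads and 54.0% of those with 3 to 6 sat. The listing itself sets part of this order: a peak of 5 reads passes the p cutoff only with a background up to 1.97, a peak of 7 reads up to 3.28 and a peak of 10 reads up to 4.695. A background of 4 or more was found at 211 autosomal peaks, all of them members, which the limit of 3.98 at 9 reads fixes. Between 2 and 3, where peaks from 6 reads upward can be listed, 203 of 3231 peaks (6.28%) were members.

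At 368 members (49.6%) the background was set by input reads at the position itself. The share was 37.2% in the peaks with 7 to 9 reads and 21.3% in those with 3 to 6. A median of 3 input reads covered these 368 summits. At 113 of them 5 or more input reads did, at 24 of them 10 or more, and the maximum was 39. At 236 members the value fitted the input in 1 kb, although every such value also equals a whole number of reads in 10 kb, and at 131 it fitted 10 kb alone, with a median of 148 input reads there. Evenly spread over the effective genome size of the header, the input would give 47.4 reads in 10 kb, and 32.8 at the human size. A background is set by 10 kb only above the 47.4, so a median above it was fixed by the class. Median fold enrichment was 2.41 where the position set the background, 3.11 for 1 kb and 3.17 for 10 kb.

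**Figure D2:**
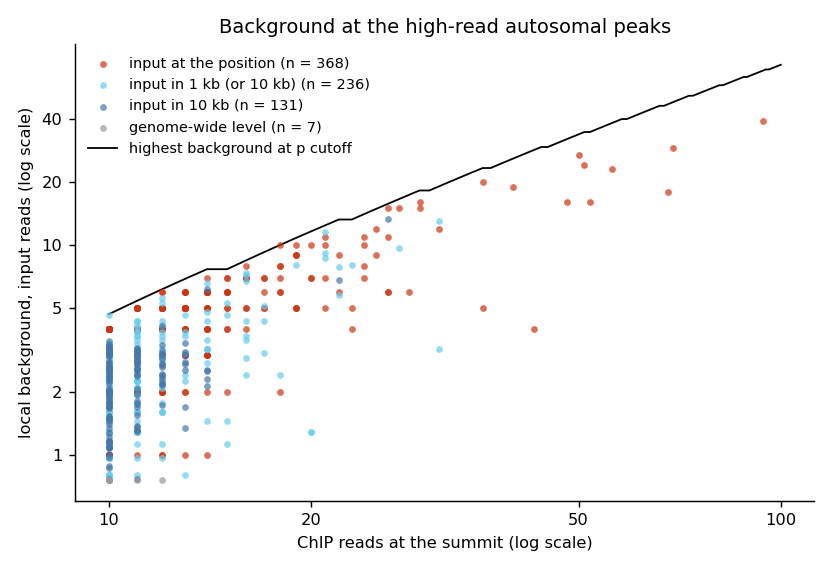
Local background in input reads (y, log scale) against ChIP reads at the summit (x, log scale) for the 742 members, coloured by the input window that set the background; the black line is the highest background at which that many reads pass the p cutoff. The deepest members, from 40 to 94 reads, have backgrounds between 4.00 and 39.0, and the 7 grey points at the genome-wide level have 10 to 12 reads.

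All of the 10 members with the most reads had their background set by the input at the position, at 4 to 39 reads. The deepest was chr4:49318839-49319030, with 94 ChIP reads, or 81.2 after scaling, over 39 input reads and a fold enrichment of 2.06. The second was chr2:162138070-162138452, with 69 reads over 29, enriched 2.02-fold. The third was chr4:49516835-49517008, with 68 reads over 18. It was enriched 3.15-fold and reached 6.92 in −log10 q. These leading members stood 2 to 3 times above an input that was itself many times the genome-wide level.

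Next in depth, chr6:157731642-157731984 had 56 reads over 23 input reads, enriched 2.06-fold. The fifth, chr4:49515528-49516254, had 52 reads over 16 and a fold enrichment of 2.70. Its summit lies 1103 bp from that of the third. On chromosome 17, chr17:41400756-41401121 had 51 reads over 24 and chr17:41381721-41381943 had 50 reads over 27, with fold enrichments of 1.80 and 1.58 and a q of 1 in both. This pair is 19224 bp apart. The eighth, chr19:44915252-44915738, had 48 reads over 16, and the tenth, chr5:17527640-17527875, had 40 reads over 19. Of these 10 members, 9 had another member within 20 kb and 3 lay within 3 Mb of the widest peak-free stretch of their chromosome.

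The ninth, chr16:896649-897133, differed from the other 9 in its low input and in having no near neighbour. Its 43 reads (exact 95% Poisson interval 31.1 to 57.9) lay over 4 input reads, an enrichment of 7.63-fold, and its −log10 q of 14.8 was the highest among the members. The nearest other member was 828035 bp away. Over all 51 members with 20 or more reads, the median background was 9.66 and the median fold enrichment 2.25, and 38 of the 51 had their background set by the position. Of these 51, 19 (37.3%) had a q below 1, against 115 (15.5%) of all 742 members. The 51 were chosen by the reads that also enter q, so nothing is read from this difference.

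The 7 members at the genome-wide background, singled out after their values were seen, were at the low end of the reads. The one with most, chr7:57905544-57906232, had 12 reads over 689 bp and a fold enrichment of 6.45. chr12:124110344-124110583 had 11 reads and a fold enrichment of 5.96. The other 5, each with 10 reads and a fold enrichment of 5.47, were chr2:51285797-51286075, chr20:42371507-42371806, chr6:11081708-11081972, chr6:36118987-36119414 and chr7:25600672-25601232. All 7 had a q below 1, which their choice fixed, since reads and background alone set p. Their median length was 300 bp. Of these 7, 1 had another member within 100 kb.

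Many high-read peaks had another high-read peak nearby, though no like-sized set of other peaks was drawn for comparison. Of the 742, 410 (55.3%) had another member within 100 kb of the summit, 192 (25.9%) within 10 kb and 42 (5.66%) within 1 kb, and the median distance to the nearest other member was 65044 bp. Set against all listed autosomal peaks, so that each class was measured against the same points, 68.1% of the members had another peak within 10 kb, compared with 59.1% of the peaks with 7 to 9 reads and 53.6% of those with 3 to 6. Within 100 kb the shares were nearly equal, at 98.9%, 98.5% and 96.5%. The median distance to the nearest other listed peak was 5040 bp, 7292 bp and 8652 bp in that order.

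**Figure D3:**
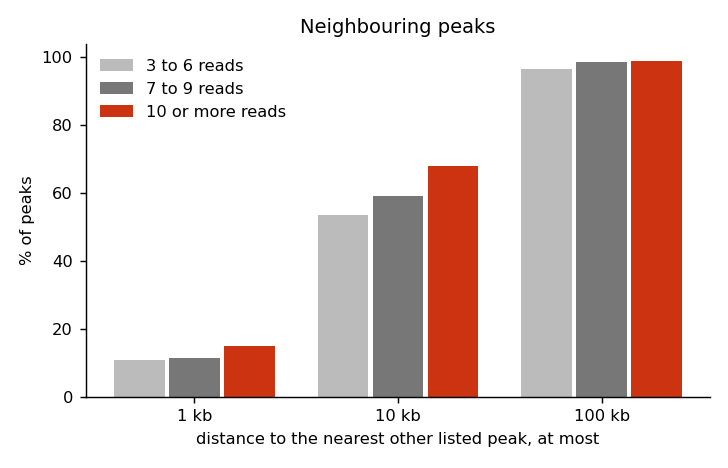
Share of autosomal peaks with another listed peak within 1, 10 or 100 kb, summit to summit, for peaks with 3 to 6 (light grey), 7 to 9 (dark grey) and 10 or more ChIP reads (red). Within 10 kb the shares are 53.6%, 59.1% and 68.1%, and within 100 kb all 3 are above 96%.

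Joined wherever neighbouring members lay at most 100 kb apart, the 742 peaks fell into 431 loci. Of these, 332 were single peaks, 50 were pairs, 22 were chains of 3 or 4, and 27 were chains of 5 or more that held 238 members (32.1%). Single members had a median background of 2.25 and a median fold enrichment of 3.21. Members in chains of 5 or more had 3.06 and 2.62, and were longer, with a median of 254 bp against 213 bp. Of the single members 20.5% had a q below 1, of those in chains of 5 or more 8.40%. Reads and background set q, so nothing further is read from these 2 shares. The share within 3 Mb of the widest peak-free stretch was 8.43% for single members and 33.6% for those in chains of 5 or more.

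The chain with the most members was on chromosome 2, from the summit at 91640810 to that at 91884878. It held 20 members among 37 listed peaks in 244 kb. Reads ran from 10 to 25 and backgrounds from 1.09 to 9 within the chain, so the input differed several-fold among its members. The summit at 91816723 had 25 reads over 9 input reads, while that at 91828645 had 13 reads over 1.35 and the highest fold enrichment of the chain, 5.20.

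A chain of 15 members on chromosome 4, from 49202410 to 49331341, contained the deepest peak of all. Apart from that peak and 1 other, its members had 10 to 18 reads over backgrounds of 2 to 6. The other was chr4:49289064-49289342, with 31 reads over 3.22, enriched 6.59-fold, and its −log10 q was 8.51. The remaining chain of 15 was on chromosome 11, from 66128079 to 66559540, and was of a flatter kind. Its reads stayed between 10 and 12 and its backgrounds between 2.06 and 4.35, and none of its members had a q below 1.

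On chromosome 5, all 12 listed peaks between 17519819 and 17595646 were members. They had 10 to 40 reads, a median background of 7 and a median fold enrichment of 2.00. On chromosome 19, a chain of 14 members from 4555399 to 4879196 had 10 to 12 reads and a median background of 3.02.

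The members were unevenly spread over the chromosomes. Chromosome 11 had 107, chromosome 7 had 106 and chromosome 1 had 89, together 40.7% of the members and 23.3% of the listed autosomal peaks. The 107 members of chromosome 11 fell into 31 loci, while the 106 of chromosome 7 fell into 65 and the 89 of chromosome 1 into 60. As a share of the listed peaks of the chromosome, members were most frequent on chromosome 11 (3.76%), chromosome 19 (2.96%, 67 members) and chromosome 21 (2.30%, 26 members). They were least frequent on chromosome 18, with 1 member among 862 peaks (0.116%), chromosome 10 (0.281%) and chromosome 13 (0.413%). Per Mb of the span of listed peaks, chromosome 19 had the most members, 1.14, and chromosome 18 the fewest, 0.0128.

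**Figure D4:**
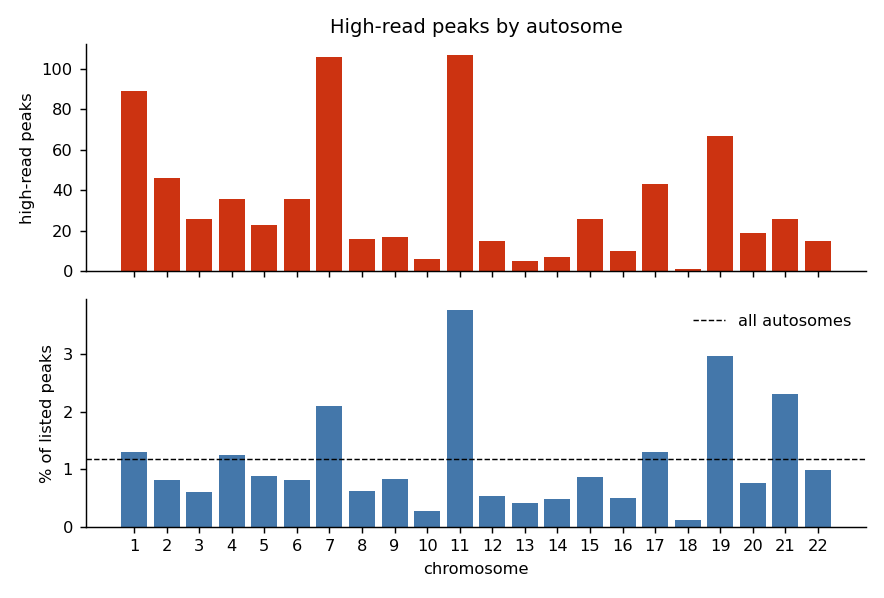
Number of members on each autosome (top) and members as a percentage of the listed peaks of that chromosome (bottom), with the share over all autosomes, 1.17%, as a dashed line. Chromosomes 11, 19, 21 and 7 stand highest in the lower panel, between 2.09% and 3.76%, and chromosome 18 lowest at 0.116%.

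Most of the members of chromosome 11 formed a single run. With neighbours joined up to 1 Mb, 88 of its 107 members lay between 65817808 and 70318175, the run with the most members on the autosomes. The next were 32 members on chromosome 1 (142786040 to 145398911), 31 on chromosome 19 (103659 to 4879196) and 21 on chromosome 2. Within the run on chromosome 11, 25.1% of the 350 listed peaks were members, while on the remainder of the chromosome 19 of 2494 (0.762%) were. The long arm of chromosome 11 carries CCND1, which encodes the cell cycle regulator cyclin D1, and FGF19, a growth factor gene, in a region known to be amplified in some liver cancers. Where these genes lie among the peaks was not determined.

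The edges of the run showed in the whole list and in the input, not only in its deepest peaks. The run had 77.8 listed peaks per Mb, the 5 Mb before it 48.8 and the 5 Mb after it 19.6. The median background of its listed peaks was 2.41, compared with 1.13 before and 0.763 after. At the genome-wide background were 1.43% of the listed peaks in the run, 13.9% of those before and 65.3% of those after. Where 10 kb of input had set the background, the median was 125 input reads in the run (145 peaks) and 75 before it (77 peaks). The 5 Mb after the run held 0 members among 98 listed peaks. DNA copies were not measured separately from the input, and the part of depth in these counts was not tested.

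**Figure D5:**
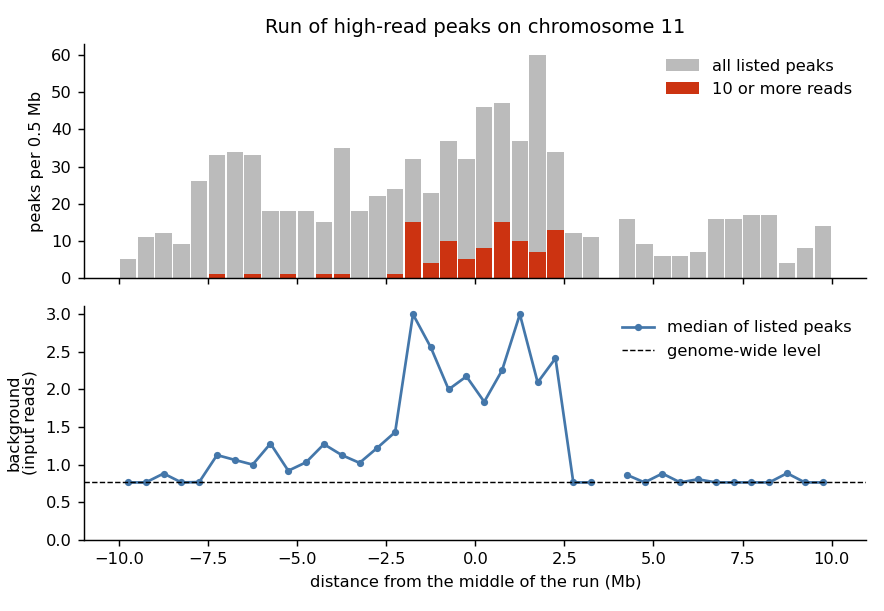
Listed peaks (grey) and members (red) per 0.5 Mb (top) and median local background of the listed peaks in input reads (bottom) by distance in Mb from the middle of the run on chromosome 11; the dashed line is the genome-wide level, and a gap in the line is a bin without listed peaks. From −1.75 to 2.25 Mb each bin holds 4 to 15 members and has a median background between 1.84 and 3.00, and on the far side all bins from 2.75 Mb on hold 0 members.

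Side by side with the other members, those of this run had fewer very deep peaks. Their reads had the same median, 11, but a maximum of 19, where the other 654 members reached 94. Their background was between 1.09 and 9, and none of the 88 sat at the genome-wide level. The position set the background in 38.6% of them and in 51.1% of the others, and 10 kb alone in 26.1% and 16.5%. The median fold enrichment was 2.58 in the run and 2.87 outside it. A q below 1 was given to 4 of the 88 (4.55%) and to 111 of the other 654 (17.0%). Since q follows from reads and background, nothing further is read from these shares.

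Many other members lay beside the widest stretch without listed peaks of their chromosome, which on most chromosomes falls at the centromere or, on the acrocentric ones, covers the short arm. Within 3 Mb of it were 162 members (21.8%), 7.86% of the peaks with 7 to 9 reads and 4.62% of those with 3 to 6. Chromosome 1 had 33 of these members, chromosome 2 had 25 and chromosome 4 had 18. Of the 162, 134 had another member within 100 kb, beside 410 of all 742 members. Satellite DNA and recent segmental duplications are common in such regions. The median background of these members was 3.00 and the maximum 39.0.

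Within 3 Mb of the first or last listed peak of a chromosome were 139 members (18.7%), 12.1% of the peaks with 7 to 9 reads and 6.46% of those with 3 to 6. Their median background was 2.90. On chromosomes 14, 15, 21 and 22 the stretch without listed peaks opens the chromosome, so 33 members counted in both places. Without them, 106 members (14.3%) lay near an end, beside 10.6% of the peaks with 7 to 9 reads and 5.84% of those with 3 to 6. The remaining 474 members (63.9%) lay in neither place. With the run on chromosome 11 also set aside, 386 remained, with a median of 10 reads, a median length of 222 bp, a median background of 2.58 and a median fold enrichment of 2.96. Of these 386, 150 had another member within 100 kb, beside 410 of all 742 members. A q below 1 was given to 69 of the 386, beside 115 of all 742 members (15.5%) and 0.255% of all autosomal peaks.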

How the data were processed

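One peak table was analysed, from 1 ChIP library of Hep3B cells with 1 input library as control. Per the labels, CASAVA 1.4, Bowtie2 2.0, Picard 2.19.0 and MACS2 2.1.2 were used on hg19. The deposited pileup is a signal, a read depth that the authors scaled to the input library. The deposited fold enrichment is a ratio with a pseudocount of 1, and the authors' −log10 p-value and −log10 q-value columns were used as they stand, although the header says that q was not calculated. Per the file headers, the p cutoff was 0.05, the fragment length 161 bp, the tag size 145 bp and the effective genome size 1870000000 bp, the mouse preset.

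Reads were the pileup divided by 0.864, rounded, and the largest distance from a whole number was 0.00574. The background was recovered from reads and fold enrichment, and matched to the input at the position, in 1 kb or in 10 kb, in that order, within 0.001. At 7 members both the position and 10 kb matched. Recovery was tested on simulated data, and a Poisson p recomputed from reads and background was within 5.26e-05 of the table on the −log10 scale. Poisson intervals cover counting error only.

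Peaks of 1 library are not replicates, so they were described without tests. The members and lists were chosen with earlier results of these data known. Named were the 10 members with most reads, the 5 with the highest background (all among those 10), the 3 chains with most members, and the chromosomes with most members and with the highest and lowest shares. Other peaks, chains and the run on chromosome 11 were named after their values were seen. Alternatives changed the read threshold, the peaks kept and the distances. Tools were matplotlib 3.10.9, pandas 2.3.3, scipy 1.17.1 and numpy 2.4.6 under Python 3.11.15.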

Additional observations from a re-analysis of the deposited data

How the results depend on the processing

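The read threshold set the number of members: 3506 peaks had at least 8 reads, 259 at least 12 and 105 at least 15, and of the 742 members 318 were enriched 3-fold or more and 115 a q below 1. The median length of 231 bp was 219, 251 and 256 bp at 8, 12 and 15 reads and 274 bp with a q below 1. The median background of 3.00 was 2.00, 4.35 and 7 at 8, 12 and 15 reads, 1.99 where the enrichment was 3-fold or more and 1.14 with a q below 1. The share with another member within 100 kb, 55.3%, was 59.6% at 8 reads, 30.2% with a fold enrichment of at least 3, 21.7% with a q below 1, 47.6% without peaks near the widest peak-free stretch, 80.7% within 1 Mb and 25.9% within 10 kb. These shares also depend on how many members remain. The share on chromosome 11, 14.4%, was 9.58%, 11.97% and 6.67% at 8, 12 and 15 reads, 7.23% with a fold enrichment of at least 3, 5.22% with a q below 1, 18.3% without peaks near the widest stretch, and 7.19% with each chain counted once. Without the run on chromosome 11, an alternative added after seeing the data, 50% of the members had another within 100 kb and 2.91% were on chromosome 11. In the other 21 results under an alternative, the number stayed within 1.5 times the reported one, or the value within its 95% interval. Among them were all 5 with chromosome X, where no peak was added. That interval was taken over the 742 members as if they were independent, for example 222 to 239 bp for the median length. Members are peaks of 1 library and many are neighbours, so it is only a yardstick and no spread between replicates. The summit inside a gene, planned as an alternative for location, was not run, for want of an annotation of that build. Pairs could not be formed. No paired analysis was possible because there was a single ChIP and a single input library. Depth limits single peaks, since at the 10 reads where 343 members lie the 95% Poisson interval spans 4.795 to 18.4.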

Other observations

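Of the listed autosomal peaks outside the left-out span, 1.17% had at least 10 reads, from 0.116% on chromosome 18 to 3.76% on chromosome 11. Off the autosomes the counts differed by place. On chromosome X none of the 287 listed peaks had 10 reads, on chromosome Y 2 of 22 did, and on unplaced scaffolds and alternative haplotypes 77 of 393 did. No explanation was tested for these counts.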
